A study of Mus musculus with 14 samples.

Results

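RNA from 3 female XX and 2 aneuploid XO mouse embryonic stem (ES) cell lines was compared gene by gene. All 5 lines are F1 hybrids of a C57BL/6J (B) mother and a CAST/EiJ (C) father, hence the name BC. They were cultured in serum and leukemia inhibitory factor (LIF) on inactivated embryonic fibroblasts, and RNA was taken at early passage after feeder cells had been depleted. Each line came from a single blastocyst, and the XO lines arose spontaneously while lines were being established, with 1 chromosome fewer than the diploid set in most metaphase spreads. Each XO group member is therefore 1 derivation, and the sources name no transgene, engineered deletion or drug treatment in any line, nor the day of sampling of single lines. Genes with values of 10 or more in 2 or more of these 5 lines entered the comparison, which held for 15641 of the 23298 genes in the table. The 3 BC XY lines are given alongside where they help to place a level, and all 14 lines of the series (3 BC XX, 2 BC XO, 3 BC XY, 3 CB XX and 3 CB XY, the CB lines being of the reciprocal cross) entered the linear model.

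In female mammals 1 of the X chromosomes is silenced in each cell at the onset of differentiation. Before that point, in the inner cell mass and in undifferentiated XX ES cells, both X chromosomes are transcribed. Mouse ES cells with a pair of active X chromosomes are known for lower global DNA methylation and for dampened signalling through the MAP kinase pathway relative to XY and XO cells, and they readily lose an X chromosome in culture. An XO line therefore allows X dosage to be examined in cells that have neither a second X nor a Y chromosome.

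A value is the authors' read signal per gene, scaled by them to a common depth. Values are listed in the order XX 1, XX 2, XX 3 and XO 1, XO 2. A difference is the fitted log2 difference, XX minus XO, on log2(value + 5), with its standard error (SE). This scale understates changes of genes with low values. A gene was called when its adjusted p in limma, with Benjamini-Hochberg adjustment over 15634 genes, was below 0.05. The 3 XX and 2 XO lines are separate lines of 1 cross. The SE and p-values rest on the spread between lines within 5 groups, estimated by limma from all 14 lines of both crosses.

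The lines held between 29242348 (XX 3) and 69646376 (XX 2) reads, if the smallest step between values is taken as 1 read. *Xist*, the noncoding RNA that coats the inactive X and is transcribed at a low level before inactivation (chrX:100655714-100678556, minus strand, mm9), had values of 3875, 4374 and 4058 in the XX lines and 1219.5 and 1650.4 in the XO lines. The groups did not overlap, and the BC XY lines had 1343, 841 and 801 (difference 1.53 ± 0.34, limma adjusted p = 0.0278). The sources used here do not say whether counting used the strand, so *Xist* and its antisense partner *Tsix* may not have been fully told apart. The Y-linked gene *Uty* had 66.1, 89.6 and 195 in the XX lines and 15.2 and 30.6 in the XO lines against 2088, 1529 and 945 in the BC XY lines. *Kdm5d*, another Y-linked gene, was higher in every XX line (36.9, 62.3 and 123) than in the BC XY lines (28.7, 6.65 and 6.02), and it was lower in both XO lines than in every XX line. *Ddx3y* had 328, 486 and 1024 in the XX, 101 and 102 in the XO and 2268, 1397 and 1115 in the BC XY lines, and *Eif2s3y* had 102, 173 and 317, 24.7 and 31.3 and 255, 195 and 40.8. None of the 4 genes was called, whereas all 4 were called in a model of the 5 XX and XO lines alone. The lines without a Y chromosome thus held some Y-linked RNA, and the XX lines held more of it than the XO lines. The same order held for RNA of fibroblasts. The mean log2 level of 33 feeder fibroblast markers was 11.1, 11.7 and 12.2 in the XX lines and 9.88 and 9.86 in the XO lines. Of the 33 markers, 25 were higher in every XX line than in both XO lines, against 23.9% of all tested genes. The summed level of these markers ran from 269519 to 596635 in the XX lines and from 108734 to 148231 in the XO lines. In bulk RNA, more cells of a type cannot be told apart from more RNA per cell. Among defining markers of ES cells, *Pou5f1* had 24861, 20412 and 10830 in the XX lines and 22594 and 27665 in the XO lines. *Sox2* had 7164, 6913 and 7552 and 8924 and 7464. None of 8 such markers was called, but 7 had negative differences, with a median of -0.39 against -0.016 over all tested genes. Of the 8 markers, 3 were lower in every XX line than in both XO lines, against 23.8% of all tested genes. XX 3, the line with the most feeder RNA and the fewest reads of the 5, also stood farthest from the XO lines. Its median absolute log2 distance was 0.525 and 0.491, against 0.309 to 0.351 for XX 1 and XX 2. The part of feeder RNA or of depth in this distance was not tested. Some lines were doubtful among those that enter only through the shared estimate of the spread, since CB XY 2 and CB XY 3 had *Uty* values of 19.6 and 45.4, below those of all BC XX lines, and 437 genes were called without them.

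A set of 7 genes could not be compared because they are listed at 0 in every XX line or in both XO lines and reach 100 or more elsewhere. Among them were the Polycomb cofactor gene Jarid2, at 0 in the XO lines, and the chaperone gene Hsp90aa1, at 0 in the XX lines. The remaining 15634 genes were tested, and 781 (5%) were called, 510 (3.26%) higher and 271 (1.73%) lower in XX lines. At an adjusted p below 0.01 there were 38 genes (0.243%), 36 higher (0.23%) and 2 lower (0.0128%), the latter being *Phlda2* and *Card10*. By comparison, 23.9% of all tested genes lay above both XO lines in every XX line, and 23.8% lay below. The number of calls rested heavily on single lines. It was 5 without XO 1, 12 without XO 2, 76 without XX 3 and 199 without XX 2, and 18 with the feeder level as a covariate. Without XX 1 it rose to 1044. The median of X-linked differences, given next, ranged from 0.62 to 0.65 over the fits that left out 1 line.

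The X chromosome stood apart from every autosome. Over 580 tested X-linked genes the median difference was 0.62, a 1.54-fold higher level in XX lines, and 519 of the 580 differences were positive. Over 15033 autosomal genes the median was -0.036, so that the X-linked median exceeded it by 0.66, or 1.58-fold. Medians of single autosomes ran from -0.22 on chromosome 17 to 0.12 on chromosome 1. Against the mean of the XO lines, the X-linked median was 0.66 in XX 1, 0.63 in XX 2 and 0.63 in XX 3, while the XO lines differed from each other by 0.027. With the feeder level as a covariate the X-linked median was 0.45, and 1 X-linked gene was called. The BC XY lines, which also carry 1 X chromosome, had X-linked medians of 0.12, 0.058 and -0.0014 against the XO lines. When each line was set against the mean of the 5 lines, the X-linked median minus the autosomal median was 0.280, 0.249 and 0.259 in the XX lines and -0.387 and -0.398 in the XO lines. The difference between the group means was 0.66, and the groups did not overlap (exact permutation test over 10 arrangements of the 5 lines, two-sided p = 0.2, the smallest that this design allows).

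**Figure D1:**
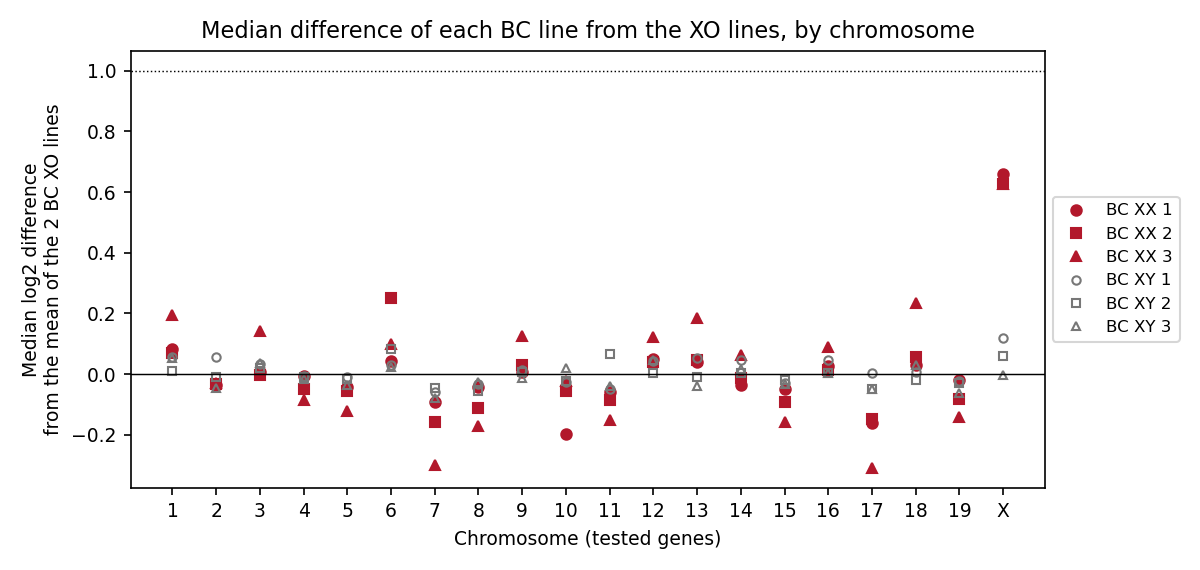
Median log2 difference of each BC XX line (filled) and BC XY line (open) from the mean of the 2 BC XO lines, for the tested genes of each chromosome. The dotted line marks a log2 difference of 1. On the X chromosome the 3 XX lines sit between 0.63 and 0.66, above every autosomal point, and the XY lines sit between -0.0014 and 0.12.

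With a pair of active X chromosomes against a single one, equal output per chromosome gives a log2 difference of 1 in the ES cells' own RNA. On log2(value + 5) the same fold gives less than 1 at low values. The XX lines also held more feeder fibroblast RNA, and its part in the counts below was not tested. The X-linked median lay below 1 in all 6 classes of expression level, from 0.80 for genes with a mean value under 30 to 0.54 for genes above 3000. By 95% intervals, 242 X-linked genes (41.7%) had a difference above 0 that did not exclude 1, and 44 genes (7.59%) lay between 0 and 1. For 137 genes (23.6%) the interval held 0 and ended below 1, and for 132 (22.8%) it was wide enough to hold both values. The interval lay wholly above 1 for 19 genes (3.28%) and below 0 for 6 (1.03%). In a one-sided limma test against a log2 difference of 1, 214 X-linked genes (36.9%, against 78.5% of all tested genes) were below it at an adjusted p under 0.05. None was above it, of any chromosome, whereas 4 X-linked genes were above it in a model of the 8 BC lines alone, 6 in a model of the 5 XX and XO lines alone and 3 with a replicate block. By fitted values alone, 142 X-linked genes (24.5%) differed by more than 1 log2 unit and 88 (15.2%) by less than 0.2.

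**Figure D2:**
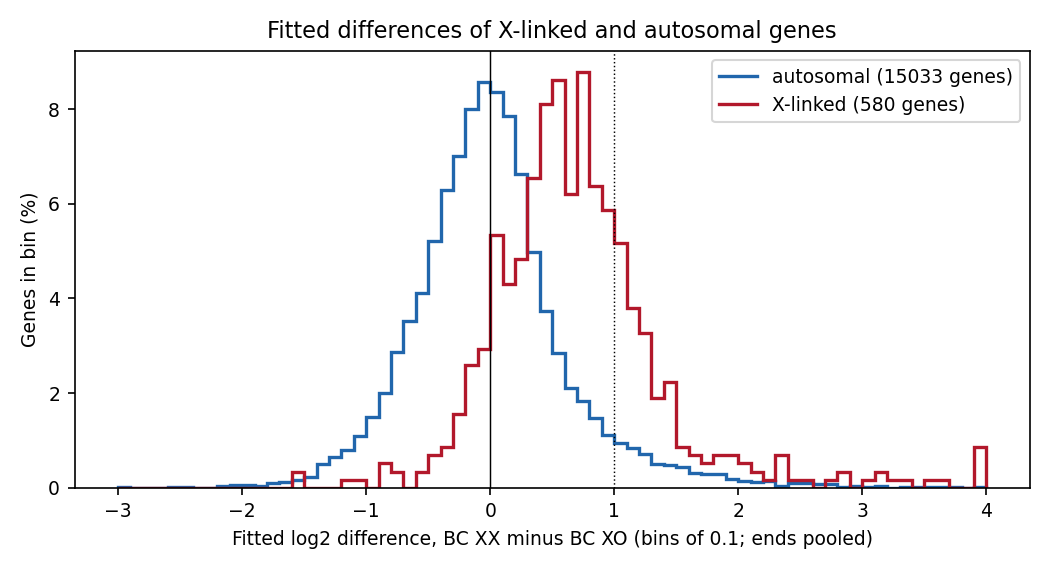
Share of genes per bin of fitted log2 difference, BC XX minus BC XO, for 580 X-linked and 15033 autosomal genes. The solid line marks 0 and the dotted line a log2 difference of 1. The X-linked curve is shifted to the right, with its median at 0.62 against -0.036 for autosomal genes.

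Of the 580 X-linked genes, 122 (21.0%) were called higher in XX lines, against 2.57% of autosomal genes, and 1 was called lower. Medians of 10 Mb windows along the chromosome with at least 20 genes ranged from 0.31 to 0.81. Fitted folds of the 122 genes called higher ran from 1.37 (*Rbbp7*) to 72.1 (*Xlr3a*), with 54 genes under 2-fold, 49 from 2-fold to 4-fold and 19 over 4-fold. The gene called lower was *Cited1*, a transcriptional coactivator, with 50.6, 30.5 and 21.6 in the XX lines and 144 and 74.7 in the XO lines (difference -1.54 ± 0.38, limma adjusted p = 0.0381). Its XX lines all lay below both XO lines.

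The largest X-linked differences were in the *Xlr* genes, a multicopy family related to a synaptonemal complex protein, of which *Xlr3b*, *Xlr4b* and *Xlr4c* are known as imprinted genes in mouse brain. All 9 tested members were higher in every XX line than in both XO lines, against 65% of all X-linked genes. The median difference of these members was 3.12, and 5 were called, against 21.0% of X-linked genes. The 10 listed members summed to only 15.2 and 11.4 in the XO lines, so the tested ones passed the minimum value through the XX lines alone. A tested member could thus hardly lie lower in XX lines, and neither share is separate evidence for the family. *Xlr3a* (chrX:70331632-70342434, minus strand, mm9) had values of 742, 345 and 528 in the XX lines and of 1.6 and 2.85 in the XO lines, which is at or near the level of 3 reads. The BC XY lines, at 2.5, 9.98 and 6.02, lay close to the XO lines (difference XX minus XO 6.17 ± 1.21, limma adjusted p = 0.0204). *Xlr3c* had 336, 171 and 255 against 4.79 and 0, and *Xlr5a* had 168, 96.5 and 182 against 0 and 1.42. In each of these genes XX 2 was the lowest of the XX lines. *Xlr5b* and *Xlr3b* were called as well, at lower levels (80.9, 33.4 and 82.5 and 73.2, 36.2 and 60.9 in the XX lines). *Xlr*, *Xlr4a*, *Xlr4b* and *Xlr4c* had differences of 1.36, 2.78, 2.07 and 2.41 and limma adjusted p between 0.0672 and 0.0854. *Xlr4c* was listed at 0 in both XO lines, so that its mean in the XX lines was at least 9.94-fold higher than the level of 3 reads per library. The *Xlr* family had no member called when XX 3 or either XO line was left out or when the feeder level was a covariate, while its median difference stayed between 2.93 and 3.39 there and with XX 1 or XX 2 left out.

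The *Xlr* copies are nearly identical, so that reads may have been divided among them and the level of a single copy is uncertain. The longest exact stretch shared by the annotated mm9 transcripts was 483 bases between *Xlr3a* and *Xlr3b*, 339 bases between *Xlr3b* and *Xlr3c* and 376 bases between *Xlr5a* and *Xlr5b*. The windows around the start sites of the Xlr3 copies are shown because all of these neighbouring copies were called, with the same order of XX lines. They run from 250 bases before to 50 bases after the start and come from RefSeq (GRCm38.p6), for *Xlr3a* at chrX:73097046-73097345 on the minus strand, for *Xlr3b* at chrX:73191929-73192228 on the plus strand and for *Xlr3c* at chrX:73265341-73265640 on the minus strand. Capitals mark the longest run common to all 3 windows, 58 bases that begin at base 191, 147 and 127 of the windows.
Xlr3a: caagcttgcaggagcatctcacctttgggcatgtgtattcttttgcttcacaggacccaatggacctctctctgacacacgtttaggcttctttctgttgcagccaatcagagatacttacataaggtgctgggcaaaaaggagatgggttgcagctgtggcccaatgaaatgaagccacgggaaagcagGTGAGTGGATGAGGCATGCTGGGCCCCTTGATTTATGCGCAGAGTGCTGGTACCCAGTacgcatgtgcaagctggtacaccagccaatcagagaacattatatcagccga
Xlr3b: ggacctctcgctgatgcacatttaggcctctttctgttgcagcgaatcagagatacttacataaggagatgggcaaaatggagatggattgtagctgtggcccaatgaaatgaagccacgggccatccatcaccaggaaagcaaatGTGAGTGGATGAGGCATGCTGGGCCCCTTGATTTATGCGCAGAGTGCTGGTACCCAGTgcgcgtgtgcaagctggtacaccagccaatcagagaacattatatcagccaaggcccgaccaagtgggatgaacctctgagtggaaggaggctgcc
Xlr3c: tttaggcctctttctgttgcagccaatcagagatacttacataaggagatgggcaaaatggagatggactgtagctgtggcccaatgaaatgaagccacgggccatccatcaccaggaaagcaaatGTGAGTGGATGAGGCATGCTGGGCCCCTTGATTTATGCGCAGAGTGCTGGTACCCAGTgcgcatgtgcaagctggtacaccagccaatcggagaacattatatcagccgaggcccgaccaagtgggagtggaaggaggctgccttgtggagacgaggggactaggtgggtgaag

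Other X-linked genes with large differences had low levels in XO lines. *Usp26*, a deubiquitinating enzyme best known from testis, had 2796, 3448 and 1668 in the XX lines and 140.4 and 114 in the XO lines (difference 4.27 ± 0.84), and the BC XY lines, at 125, 633 and 345, ran from the level of the XO lines to values between the groups. *Nxf3*, a member of the nuclear RNA export factor family, had 69.0, 61.5 and 84.5 against 3.19 and 4.27 (difference 3.13 ± 0.46, limma adjusted p = 0.00845). Its paralogue *Nxf2*, named here after its values were seen, differed by 2.34 ± 0.47. *Gm364* had 204, 191 and 145 against 7.18 and 15.7 (difference 3.53 ± 0.45, limma adjusted p = 0.00479). In each of these genes every XX line was at least several-fold above both XO lines. *Efhc2*, which encodes an EF-hand protein of cilia, had 168, 143 and 208 against 27.1 and 6.4, and the transcript *1700080O16Rik*, near *Usp26* on the chromosome, had 75.6, 44.4 and 26.5 against 0 in both XO lines, at least 21.6-fold. *Rhox1*, a reproductive homeobox gene, had 63.7, 59.0 and 30.5 against 6.38 and 5.69 (difference 2.29 ± 0.61, limma adjusted p = 0.0483). It was the single Rhox gene called of 3 tested, since *Rhox6* and *Rhox9* differed by 0.02 ± 0.43 and 0.13 ± 0.42 and 26 further members were below the minimum value. *Tnmd* and *Srpx2*, which encode a tendon glycoprotein and a secreted protein, ran in the order of the feeder levels, at 38.7, 72.5 and 129.7 and 111, 258 and 399 in the XX lines against 3.19 and 5.69 and 28.7 and 24.2 in the XO lines. *Bgn*, which encodes a matrix proteoglycan, showed the same order of XX lines (4561, 7747 and 12131 against 2210.0 and 2038, limma adjusted p = 0.0586). The part of feeder RNA in these differences was not tested gene by gene.

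**Figure D3:**
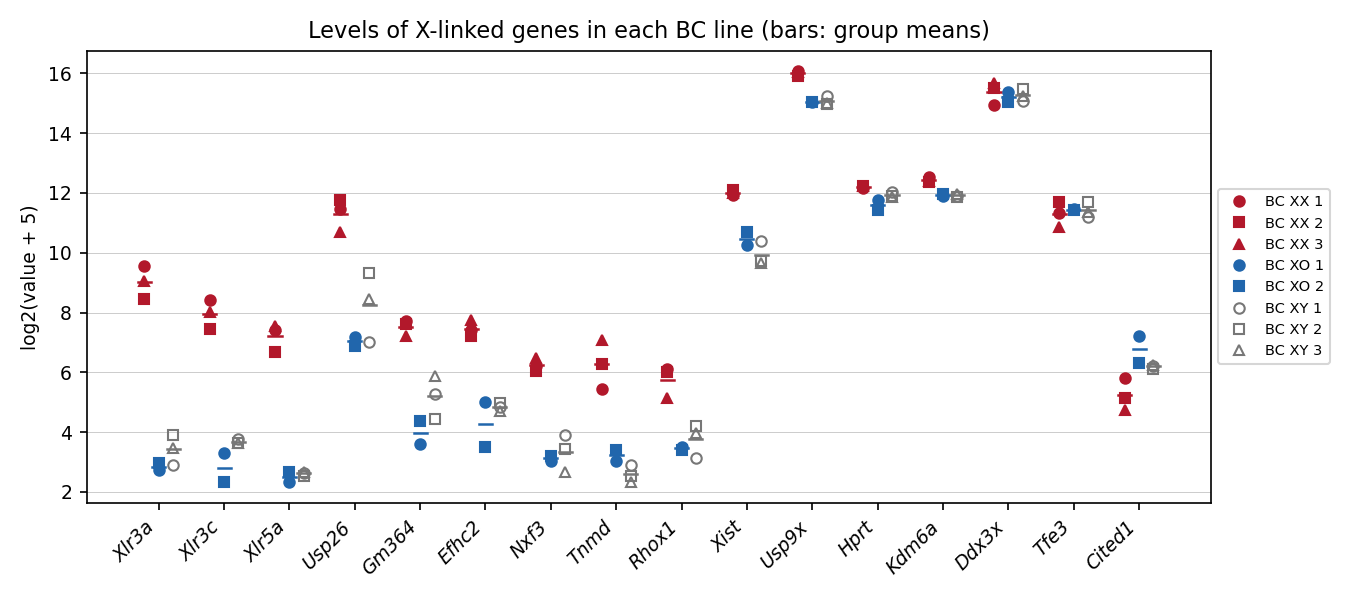
Level of 16 X-linked genes, as log2(value + 5), in each BC XX, BC XO and BC XY line, with a bar at each group mean. From *Xlr3a* to *Rhox1* the XX lines sit far above the XO and XY lines, *Xist* to *Kdm6a* show smaller gaps without overlap of XX and XO lines, *Ddx3x* and *Tfe3* overlap, and *Cited1* is lower in the XX lines.

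Around the X inactivation centre, the region that controls X silencing, 2 of 10 tested genes were called, both higher in XX lines, against 21.0% of all X-linked genes (median difference of the list 0.72). These were *Xist*, above, and *Chic1*, at 1833, 1930.4 and 1985 against 724 and 1157 (difference 1.06 ± 0.26, limma adjusted p = 0.0363). *Ftx*, a noncoding activator of *Xist*, had 315, 409.5 and 315 against 142 and 203 (limma adjusted p = 0.0726), and *Tsx* had 68.4, 67.6 and 34.4 against 20.7 and 13.5 (limma adjusted p = 0.0717). Both sets of lines were apart without passing the threshold. *Rlim*, the ubiquitin ligase whose gene product activates *Xist*, had values that did not overlap between the groups (difference 0.46 ± 0.26). *Tsix*, the antisense repressor of *Xist*, had 193, 209 and 231 against 199 and 245, and *Jpx*, a noncoding activator, had 101, 97.7 and 110.0 against 89.3 and 105. For these genes the intervals of the difference were -0.79 to 0.66 and -0.43 to 0.59, so that a difference of 1 lay outside them.

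A list of 13 X-linked genes held regulators of signalling and pluripotency and also the metabolic gene *Hprt*. Of these 13, 2 were called, against 21.0% of X-linked genes, and 11 had positive differences, as had 519 of the 580 X-linked genes (median 0.51). *Mtmr1*, a lipid phosphatase, had 971, 712 and 715 against 296 and 282 (difference 1.44 ± 0.32, limma adjusted p = 0.0285), and *Hprt*, the purine salvage enzyme, had 4578, 4801 and 4821 against 3465 and 2772 (difference 0.61 ± 0.16, limma adjusted p = 0.042). *Dusp9*, a MAP kinase phosphatase, had 5878, 3778 and 2107 against 2444 and 1659.6, with XX 3 inside the range of the XO lines (limma adjusted p = 0.145). *Klhl13*, a ubiquitin ligase adaptor, had 34858, 47981 and 40850 against 16035 and 53527, and the XO lines differed from each other more than the groups did. *Zfx* (0.59 ± 0.20), *Elk1* (0.49 ± 0.16) and *Araf* (0.47 ± 0.18), a transcription factor, an ERK target and a RAF kinase, had groups that did not overlap and limma adjusted p between 0.0842 and 0.135. *Tfe3*, a transcription factor of self-renewal, and *Nr0b1*, an orphan nuclear receptor, had differences of -0.14 ± 0.26 and -0.05 ± 0.31.

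Of 11 genes known to escape X inactivation, 4 were called, all higher in XX lines (21.0% over all X-linked genes), and their median difference was 0.52 against 0.62 for all X-linked genes. *Usp9x*, a deubiquitinating enzyme (chrX:12648624-12759008, plus strand, mm9), had 68831, 62239 and 67771 against 33493 and 33821 (difference 0.98 ± 0.16, limma adjusted p = 0.0098), so that its level in the XO lines was close to the fold of 2 below the XX lines. *Shroom4* (1.33 ± 0.27), *Pbdc1* (0.76 ± 0.17) and *Eif2s3x* (0.63 ± 0.16), a subunit of a translation initiation factor, were the other 3. The histone demethylase gene *Kdm6a* had 5944, 5235 and 5379 against 3833 and 3995, without overlap (difference 0.49 ± 0.14, limma adjusted p = 0.0568). *Kdm5c* and *Ddx3x*, a demethylase and an RNA helicase, had differences of 0.23 ± 0.17 and 0.16 ± 0.21 and overlapping lines.

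Of 20 X-linked chromatin genes all had positive differences (median 0.46), 14 had groups that did not overlap, against 65% of all X-linked genes, and 4 were called, against 21.0%. These were the histone chaperone *Rbbp7* (0.46 ± 0.12), the cohesin subunit *Smc1a* (0.76 ± 0.16), the general transcription factor subunit *Taf1* (0.82 ± 0.17) and the chromatin remodeller *Atrx*, with 37623, 34200 and 37959 in the XX lines and 23849 and 20417 in the XO lines (difference 0.73 ± 0.18, limma adjusted p = 0.0386). At the other end of the list, the corepressor *Bcor* and the methyltransferase *Suv39h1* had 3103, 3469.9 and 2537 against 3231 and 2731 and 1634, 1522 and 1268 against 1651 and 1254. Their intervals, -0.49 to 0.53 and -0.40 to 0.46, ended below 1. Differences within this list thus ran from about 0 to 0.82.

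On the autosomes, 387 genes (2.57%) were called higher and 270 (1.8%) lower in XX lines. Among the 387 genes, 245 (63.3%) ran in the order of the feeder levels of the XX lines, lowest in XX 1 and highest in XX 3, against 30.5% of all tested autosomal genes and 27.0% of the X-linked genes called higher. Among the 270 genes called lower, 112 (41.5%) ran in the opposite order, against 30.5% of autosomal genes. The largest autosomal increase was that of *Postn*, a matrix protein and 1 of the feeder fibroblast markers, which had 3482, 8839.8 and 19281 in the XX lines and 238 and 267 in the XO lines (difference 5.03 ± 0.80, limma adjusted p = 0.00977). *Igfbp7* (3.98 ± 0.57), the integrin gene *Itga11* (3.79 ± 0.49), the smooth muscle actin *Actg2* (3.74 ± 0.70), the collagen gene *Col5a2* (3.70 ± 0.85) and the collagen crosslinking enzyme *Lox* (3.64 ± 0.74) were among the 12 largest increases, together with *Gng11*, *Ankrd1*, *Pappa* and *Fibin* (differences of 3.60, 3.56, 3.55 and 3.50). These 12 also held *Pramel6*, a pluripotency factor gene, and *Rcsd1*, an actin capping protein regulator whose XX lines ran against the order of the feeder levels (945, 782 and 427 against 62.2 and 37.7). In all, 15 of the 33 feeder fibroblast markers were called, all higher in XX lines, against 3.26% of all tested genes, with a median difference of 1.82. An exception was *Pdgfra*, with 197, 381 and 409.6 against 688 and 736, and *Col6a1*, *Col6a2*, *Col6a3* and *Lum* were among the markers that overlapped between the groups. How much of these differences came from remaining feeder cells was not tested.

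Most germline genes had higher fitted levels in XX than in XO lines, but 1 of the XY lines was at the XX level. Such genes are known to be kept silent outside the germline by promoter DNA methylation and by repressors that bind the E-box CACGTG. Of 24 tested members, 22 had positive differences, and 15 were higher in every XX line than in both XO lines, against 23.9% of all tested genes. Of the same members 5 were called, all higher, against 3.26% of all tested genes. The median difference was 1.11, against -0.016 over all tested genes. The mean log2 level of the list was 7.82, 7.43 and 7.15 in the XX lines and 6.37 and 6.36 in the XO lines. The BC XY lines had 6.57, 6.81 and 7.61, so that BC XY 3, with 1 X chromosome, lay within the range of the XX lines. *Hormad1*, a protein of meiotic chromosome axes (chr3:95363599-95391593, plus strand, mm9), had 1569, 1774 and 1215 in the XX lines and 191 and 299 in the XO lines. The XX lines lay at 1519 ± 283 (mean ± SD, n = 3) and the XO lines at 245 ± 76.5 (n = 2), and the BC XY lines, at 371, 338 and 343, lay above the XO and far below the XX lines (difference XX minus XO 2.63 ± 0.35, limma adjusted p = 0.00589). *Sohlh2*, a germ cell transcription factor, had 1359, 643 and 591 against 110.1 and 118 (difference 2.76 ± 0.68, limma adjusted p = 0.037). *Sycp1*, a component of the synaptonemal complex, had 643, 471 and 507 against 102 and 149, and *Stk31*, a kinase of the germline, had 502, 347 and 409.6 against 94.1 and 132 (limma adjusted p = 0.0478 and 0.0226). *Tex11*, an X-linked meiosis gene, had 274, 223 and 235 against 49.4 and 71.1 (difference 1.95 ± 0.38). In the BC XY lines *Sohlh2* had 112, 176 and 413 and *Tex11* had 72.4, 79.8 and 177, with BC XY 3 the highest in both. *Taf7l*, *Fkbp6*, *Syce1* and *Mael* had differences of 1.98, 1.91, 1.72 and 1.46 and limma adjusted p of 0.0669, 0.0651, 0.0586 and 0.0773. *Dazl*, an RNA-binding protein of germ cells, had 1562, 843 and 1169 against 549.5 and 285, and *Ddx4*, another germ cell marker, had 485, 589.9 and 581 against 554 and 504, the latter with lines that overlapped. No member was called without XO 1 or with the feeder level as a covariate (median difference 1.83), and 1 was called without XO 2, without XX 3 or with a replicate block.

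The start regions of *Hormad1*, *Sycp1* and *Stk31* are shown because these called genes hold the E-box letters named above. *Sohlh2*, the called germline gene with the largest difference, has no match in its window, and no window was found for *Tex11*. The letters CACGTG, which read the same on both strands, were searched in windows from 250 bases before to 50 bases after the start (RefSeq, GRCm38.p6). They occurred for 12 of 22 tested germline genes that had a window (54.5%), for 11.4% of all tested genes with a window and for 8.09% of all genes with a window. The windows are chr3:95559427-95559726 on the plus strand for *Hormad1*, chr3:102936051-102936350 on the minus strand for *Sycp1* and chr6:49395289-49395588 on the plus strand for *Stk31*. Capitals mark each match, of which *Hormad1* has 2 and the others 1.
Hormad1: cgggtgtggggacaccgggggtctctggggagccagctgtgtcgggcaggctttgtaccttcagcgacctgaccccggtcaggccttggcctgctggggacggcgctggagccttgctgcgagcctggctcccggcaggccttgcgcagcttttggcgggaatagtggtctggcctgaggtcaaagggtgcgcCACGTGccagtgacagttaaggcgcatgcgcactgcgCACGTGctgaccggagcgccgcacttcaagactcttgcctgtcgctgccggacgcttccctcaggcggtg
Sycp1: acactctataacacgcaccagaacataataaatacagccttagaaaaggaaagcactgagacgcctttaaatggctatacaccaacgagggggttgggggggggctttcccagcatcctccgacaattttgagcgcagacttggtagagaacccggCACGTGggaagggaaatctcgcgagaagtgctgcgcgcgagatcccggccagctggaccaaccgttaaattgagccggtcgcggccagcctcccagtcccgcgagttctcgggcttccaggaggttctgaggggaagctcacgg
Stk31: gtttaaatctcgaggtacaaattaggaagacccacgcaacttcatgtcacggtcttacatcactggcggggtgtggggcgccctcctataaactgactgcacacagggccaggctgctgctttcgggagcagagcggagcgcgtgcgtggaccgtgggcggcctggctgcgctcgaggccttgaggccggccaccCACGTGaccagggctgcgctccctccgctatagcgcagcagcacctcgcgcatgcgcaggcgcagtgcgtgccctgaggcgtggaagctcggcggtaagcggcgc

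Among DNA methylation genes, 2 of 18 were called, against 5% of all tested genes. *Apobec2*, a member of the cytidine deaminase family, was higher in XX lines (706, 580.5 and 662 against 128 and 206, difference 1.96 ± 0.29, limma adjusted p = 0.00828), and the NuRD complex subunit *Mbd3* was lower (1588, 1745 and 779 against 3660.0 and 3855, difference -1.54 ± 0.32, limma adjusted p = 0.0228). The maintenance methyltransferase *Dnmt1* had 11840, 11235 and 8119.6 against 14722 and 13305, and *Uhrf1*, the protein that recruits it, had 11117, 13211 and 8502 against 18521 and 16006. Both were lower in every XX line, with limma adjusted p of 0.127 and 0.0922. The de novo enzymes *Dnmt3a* and *Dnmt3b* and their cofactor *Dnmt3l* had differences of -0.54 ± 0.29, -0.82 ± 0.40 and -0.40 ± 0.35, with lines that overlapped. *Tet1* and *Tet2*, which oxidize methylcytosine, had -0.10 ± 0.29 and -0.08 ± 0.18. *Pramel6*, a factor of ground state pluripotency, had 192, 125 and 113 against 7.98 and 2.13 (difference 3.91 ± 0.54, limma adjusted p = 0.00668). In the BC XY lines *Pramel6* was at 7.49, 8.31 and 4.69, close to the XO lines.

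Of 30 genes listed as pluripotency factors, 22 had negative differences and 2 were called, both lower in XX lines, against 1.73% of all tested genes (median difference -0.45). *Tcf3* was listed by its symbol. It is an E protein transcription factor gene on chromosome 10 and not *Tcf7l1*, the Wnt pathway repressor often called *Tcf3* in ES cells. The count of 2 thus includes this namesake. *Tcf3* had 1156, 1035 and 585 in the XX lines and 2362 and 2392 in the XO lines (difference -1.41 ± 0.31, limma adjusted p = 0.0248). It lies near *Mbd3* (chr10:79872259-79896392, minus strand, and chr10:79855284-79862295, minus strand, mm9), and *Tcf7l1* itself differed by -1.24 ± 0.51. *Sall4*, a zinc finger factor of ES cell identity, had 6153, 7166 and 6743 against 16312 and 11938 (difference -1.06 ± 0.28, limma adjusted p = 0.0432). *Utf1*, a chromatin-associated ES cell factor, had 739, 727 and 368 against 1793 and 1789, a larger difference that did not pass (limma adjusted p = 0.066). *Esrrb* and *Nanog*, of the core network, had 11130, 9497 and 9128 against 18900 and 12766 and 6748, 6826 and 4852 against 10809 and 7489. Both lay lower in every XX line, with limma adjusted p of 0.203 and 0.272. *Prdm14*, which represses DNA methyltransferases, had 642, 499 and 469.5 against 537 and 344, with XX 2 and XX 3 inside the range of the XO lines (difference 0.31 ± 0.30). The median of this list moved to 0.036 with the feeder level as a covariate, and was -0.27 without XO 1.

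Among 23 feedback genes and targets of the ERK pathway, 19 had negative differences (median -0.26). The 1 gene called, *Ier3*, an immediate early gene, was higher in XX lines, in the order of their feeder levels (596, 1019.7 and 1308 against 442 and 317, limma adjusted p = 0.0479). Over all tested genes 3.26% were called higher. The transcription factor gene *Etv5* had 7599.9, 8542 and 6516 against 10046 and 11313, and *Myc* had 746, 736 and 522 against 1349.5 and 1123, each lower in every XX line without passing. *Dusp6* (-0.21 ± 0.19), *Spry2* (-0.40 ± 0.26), *Spry4* (-0.26 ± 0.50) and *Egr1* (-0.03 ± 0.37), which are feedback regulators and an early response gene, differed by less than 2 standard errors. XO 1 was above XO 2 in 20 of the 23 genes, and the median of the list was 0.054 without XO 1.

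Primitive streak markers and Wnt targets leaned toward the XO lines, with 16 of 18 differences negative and a median of -1.04. Of the 18 genes, 15 were lower in every XX line than in both XO lines, against 23.8% of all tested genes. The list had 1 call, against 1.73% of all tested genes called lower. It was the homeobox gene and Wnt target *Cdx1*, at 25.6, 15.1 and 18.7 in the XX lines and 131 and 86.8 in the XO lines (difference -2.19 ± 0.52, limma adjusted p = 0.0332). *Mesp1*, a mesoderm factor, had 7.14, 1.63 and 1.96 against 31.9 and 51.9 (limma adjusted p = 0.0672), and the ligand gene *Wnt3* had 136, 94.0 and 81.5 against 480.1 and 299 (limma adjusted p = 0.0658). *Axin2*, a negative feedback target of Wnt signalling, had 471, 467 and 459 against 1759 and 738, with XO 1 well above XO 2. *Lefty1* and *Lefty2*, inhibitors of *Nodal* signalling, had higher values in every XX line, at 1848, 2648 and 1625 against 1524 and 1432 and 12101, 7878 and 9391 against 6483 and 6115. Without XO 1 the median of the list was -0.56, and without XO 2 it was -1.48. Of 14 formative and primed epiblast genes none was called. *Otx2* and *Fgf5*, its best known members, had differences of 0.03 ± 0.27 and -0.03 ± 0.50.

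**Figure D4:**
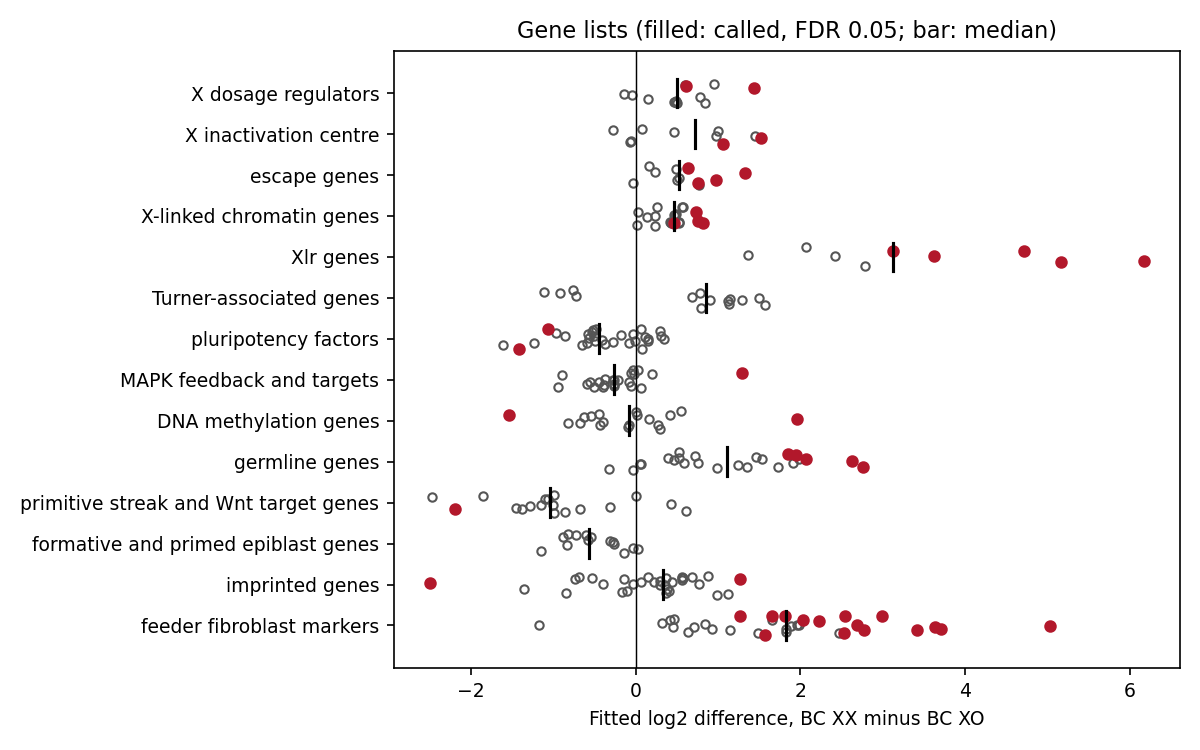
Fitted log2 difference, BC XX minus BC XO, of each tested member of 14 gene lists; filled points were called, open points were not, and the bar is the list's median. The *Xlr* genes, feeder fibroblast markers and germline genes lie to the right, with medians of 3.12, 1.82 and 1.11, and the primitive streak and Wnt target genes lie to the left, with a median of -1.04.

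Of 32 autosomal imprinted genes 2 were called, in opposite directions, a share near the 5% over all tested genes. *Phlda2*, a maternally expressed inhibitor of placental growth (chr7:150687450-150688446, minus strand, mm9), had 166, 139 and 87.4 in the XX lines and 817 and 671 in the XO lines. The BC XY lines had 535, 488 and 589.7, between the groups but nearer to the XO lines (difference XX minus XO -2.50 ± 0.29, limma adjusted p = 0.00266). *Ndn*, paternally expressed, had 718, 656 and 663 against 261 and 300.2 (difference 1.26 ± 0.27, limma adjusted p = 0.0247). Near *Phlda2*, the growth inhibitor gene *Cdkn1c* had 227, 249 and 379 against 438 and 467 and *Slc22a18* had 13.7, 13.0 and 6.88 against 58.2 and 21.3, lower in every XX line but not called. The noncoding RNA *Kcnq1ot1* of the same domain had 20075, 25424 and 27586 against 15609 and 17254 (limma adjusted p = 0.117). *Rian*, a maternally expressed noncoding RNA, had 13289, 15502 and 15403 against 7874 and 9456 (limma adjusted p = 0.0724), and the growth factor adaptor gene *Grb10* had 3357, 7549 and 13709 against 8234 and 1267, with a spread within both groups wider than the difference between them. *H19* and *Igf2* had differences of -0.14 ± 0.32 and 0.44 ± 0.55.

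The study tied 14 genes to Turner syndrome or haploinsufficiency, choosing them on these lines, so that their directions are not independent evidence. None was called here, 10 had positive and 4 negative differences, and the groups did not overlap for 13, against 23.9% of all tested genes with XX lines above and 23.8% with XX lines below. The clotting factor gene *F8* had 236, 269 and 266 against 128 and 59.8 (limma adjusted p = 0.0569), *Slc33a1*, an acetyl-CoA transporter, had 849, 804 and 1021 against 414 and 534 (limma adjusted p = 0.0527), and *Wnt4* had 122, 133 and 100.2 against 327 and 207 (limma adjusted p = 0.0654). *Fgfr3* had 367, 236 and 206 against 683 and 294, with XX 1 inside the range of the XO lines. *Il6*, a cytokine gene, followed the order of the feeder levels in the XX lines (difference 1.57 ± 0.79). Of 17 X-linked genes that the study named as examples, from comparisons that included the XX lines used here and so are not independent of them, 11 were called, all higher, among them *Gprasp1* (4869, 4452 and 4344 against 2337 and 2233) and *Trappc2* (492, 410.3 and 504 against 195 and 191). *Apln*, the exception in direction, had 158, 133 and 169.9 against 233 and 284 and was not called (difference -0.73 ± 0.77).

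Among the 12 largest autosomal decreases, beside *Phlda2* and *Cdx1*, *Card10*, a signalling scaffold (162, 114 and 67.8 against 823 and 354), *Rab25*, an epithelial vesicle transport GTPase (68.4, 51.7 and 37.3 against 258 and 168), the tight junction gene *Tjp3* (210.1, 170.2 and 87.4 against 853 and 371), the adhesion molecule gene *Bcam* (953, 778 and 382 against 3006 and 2149.8), *Sfn* (1367, 721 and 309 against 3702 and 1948) and the secreted protease inhibitor gene *Slpi* (14.3, 8.55 and 2.95 against 40.7 and 53.4) were called lower, as were *Gm8580* (-2.08 ± 0.53) and *Dlgap3*, which encodes a postsynaptic scaffold protein (-2.06 ± 0.47). Their differences ran from -2.27 to -1.91. In each of them XX 3, the line with the most feeder RNA, was the lowest. Larger negative differences of *Oaz1-ps* and *Atp6v0c* are uncertain, since both have values that are fractions of 1 read and near copies may share their reads.

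Calls among markers of other cell types were all higher in XX lines, against 3.26% of all tested genes called higher. The collagen genes *Col4a1* and *Col4a2*, which primitive endoderm shares with fibroblasts, were the 2 called of 14 primitive endoderm markers, while the endoderm factor *Gata4* had 85.7, 75.7 and 136 against 491 and 230.5. None of 8 trophoblast markers was called, and of 9 neural markers the adhesion molecule gene *Ncam1* was called (1997, 2371 and 3578 against 1093 and 875). Of 5 tested markers of 2-cell-like cells, 3 copies of Zscan4 were called, *Zscan4a*, *Zscan4c* and *Zscan4f*, at 69.6, 15.5 and 10.8, 49.4, 14.7 and 9.82 and 39.9, 8.55 and 12.8 in the XX lines and at 3 reads or fewer in the XO lines. XX 1 was the highest line for each copy. Of the 14 listed markers only 5 reached the minimum value, and the 3 called copies did so through the XX lines alone. These copies could thus hardly have been called lower, and their share of the tested markers is not separate evidence. These copies are near identical, with a shared stretch of 407 bases between the transcripts of *Zscan4c* and *Zscan4f*, so that their reads may not be separate.

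**Figure D5:**
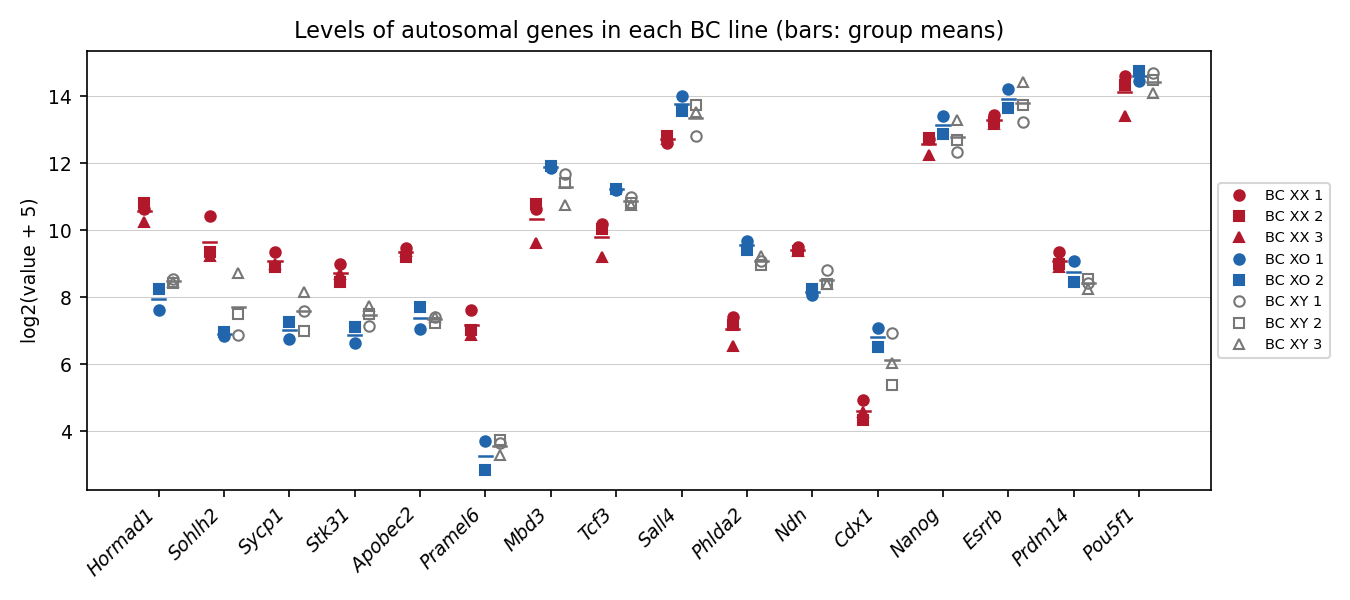
Level of 16 autosomal genes, as log2(value + 5), in each BC XX, BC XO and BC XY line, with a bar at each group mean. *Hormad1* to *Pramel6* are higher, as is *Ndn*, *Mbd3* to *Phlda2* and *Cdx1* to *Esrrb* are lower in every XX line than in both XO lines, while *Prdm14* and *Pou5f1* overlap.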

How the data were processed

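RNA sequencing of 14 ES cell lines gave 1 table of 23298 genes by line. Per the study's methods and the submitters' processing notes, total RNA libraries were prepared in batches that the sources do not assign to lines and were then pooled for sequencing, reads were aligned with TopHat2 to mm9, and levels came from Cuffdiff. The deposited values are a signal that the authors scaled to a common depth, and between 98.2% and 98.9% of values per line were whole multiples (within 0.02 of a step) of a step taken as 1 read. The values were not treated as counts.

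The main test was limma (version 3.58.1 in R 4.3.3, with a trended prior) on log2(value + 5), fitted over 14 lines in 5 groups, with the contrast BC XX minus BC XO and Benjamini-Hochberg adjustment over 15634 genes. Sums over sets used pandas 2.3.3. The test was checked on simulated data with independent noise for each gene and the same spread in all groups. That check does not cover variation that many genes share, such as the order of the feeder levels. Calls used an adjusted p below 0.05, and intervals are at 95%. Group names came from the labels. Names of lists, their members and the 12 largest differences in each direction, for X-linked and autosomal genes separately, set which genes the text names, and the genes and lists were chosen with earlier results of these data known. Alternatives changed the lines, pseudocount, filter, scaling, weights and covariates. Columns of the CB lines served only to estimate the spread.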

Additional observations from a re-analysis of the deposited data

How the results depend on the processing

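The number of called genes depended on the lines and the model more than the fitted differences did. Against 781 genes, of which 123 were X-linked, leaving out 1 line gave 5 to 1120 genes and 1 to 142 X-linked genes, and the X-linked median stayed between 0.62 and 0.65. With the feeder level as a covariate, 18 genes and 1 X-linked gene were called (1689 at an unadjusted p under 0.05), and the X-linked median was 0.45. Without a filter on low values there were 448 calls, an X-linked median of 0.48 and 397 X-linked genes below a log2 difference of 1, against 214. Without CB XY 2 and CB XY 3 there were 437 calls. A correction for GC content, chosen after seeing the data, gave 519 calls, 74 X-linked, and a median of 0.54, and voom on reads recovered from the steps, also chosen after seeing the data, gave 1156 calls, 172 X-linked, and a median of 0.67. The X-linked median was 0.66 with a pseudocount of 1, 0.56 with 20, 0.65 with TMM scaling and 0.64 with line weights. Of the calls, 65.3% were higher in XX lines, 74.5% with the 8 BC lines alone, 76.4% with the 5 lines alone and 55.5% with line weights. The cause of these differences was not tested.

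The 8 BC lines with a replicate block gave 13 calls, 6 X-linked. In deviations from group means, same-numbered lines correlated at 0.093 and 0.13 for XX with XO lines and at -0.17, 0.27 and -0.049 for XX with XY lines. For XO with XY lines the values were -0.51 and 0.043. The deviations of the 2 XO lines are mirror images of each other, so whether the number pairs lines cannot be decided from these values. Count models on recovered reads, planned as edgeR and DESeq2, were not run, since not all values gave whole reads.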

Other observations

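Medians of whole autosomes varied between lines. Against the mean of the XO lines, the median of chromosome 6 was 0.25 in XX 2 and that of chromosome 10 was -0.20 in XX 1. In XX 3 those of chromosomes 7 and 17 were -0.30 and -0.31 and that of chromosome 18 was 0.23. Chromosomes 7 and 17 were negative in XX 1 (-0.092 and -0.16) and XX 2 (-0.16 and -0.15) as well. XX 3 was also shifted on other autosomes, such as chromosomes 8 (-0.17) and 1 (0.19). These are values of 1 line each, with no test.

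Genes listed at 0 throughout a group had high values elsewhere. Jarid2, a cofactor of Polycomb repressive complexes, was at 13838, 15286 and 13765 in the XX lines and listed at 0 in both XO lines, with 14153, 17511 and 12517 in the BC XY lines. Hsp90aa1, a chaperone gene, was listed at 0 in every XX line and at 178962 and 204509 in the XO lines. A 0 in this table can be a failed estimate, so no fold is given.

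Between *Tcf3* and *Mbd3* lies *Uqcr11*, a respiratory chain subunit gene named here after its values were seen, with 1739, 1394 and 549 in the XX lines and 2235 and 2058 in the XO lines (limma adjusted p = 0.132).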
